A study of Mus musculus with 6 samples.

Results

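The aquaporins, the membrane channels of water and small solutes, and the vasopressin V2 receptor that controls the water channel of the collecting duct were examined in the kidneys of MRL and LPR mice. The members are all non-control probes of the array whose gene name is Aqp1, Aqp2, Aqp3, Aqp4, Aqp5, Aqp6, Aqp7, Aqp8, Aqp11 or Avpr2. They comprise 18 of 56605 probes and 10 of 36870 gene names. Of these genes, 5 have 1 probe each and 5 have more than 1. All 10 symbols are still in use in RefSeq.

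In the nephron, water leaves the tubule along the osmotic gradient and passes the cell through a channel in each membrane. Aqp1 serves this purpose in the proximal tubule and the thin descending limb. In the principal cells of the collecting duct, vasopressin binds Avpr2, cyclic AMP rises, and vesicles that carry Aqp2 fuse with the apical membrane, while Aqp3 and Aqp4 let the water out at the basolateral side. Aqp6 lies in vesicles of the intercalated cells, Aqp7 carries glycerol and water at the brush border of the straight proximal tubule, and Aqp11 is found in the endoplasmic reticulum of proximal tubule cells. Aqp8 is best known from the liver, colon, pancreas and testis, and Aqp5 from secretory glands.

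Transcriptome analysis (TA) covered whole kidneys from 2 groups of female mice, 3 MRL/MpJ mice (MRL) as controls and 3 MRL/MpJ-Fas lpr/lpr mice (LPR). All were 6 months old, and no treatment is given in the labels. LPR mice share the MRL background and are homozygous for the lpr mutation of Fas, a death receptor gene, and serve as a model of lupus nephritis. RNA of each kidney went to 1 single-colour array, without pooling. Nothing in the labels ties the mice to litters or days, so effects of litter or day could not be examined. The p-values from limma set the difference between the groups against the spread within them, which limma adjusts with the spread of all tested probes.

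All 6 arrays lay on 1 slide, where the 3 MRL arrays and LPR 1 filled column 1, and LPR 2 and LPR 3 were in column 2. The share of spots well above background was 69.6% to 73.5%. On the log2 scale used below, 0 is the 75th percentile of an array and a step of 1 is a doubling of the signal. Levels can be compared between mice for 1 probe, but not between probes, so no order of the genes by level is given. The Fas gene did not settle the labels: its brighter probe changed by -0.47 (standard error 0.24, adjusted p = 0.234), and its dimmer probe was above background in 0 of 3 MRL and 3 of 3 LPR kidneys. Of 7 kidney markers such as Umod and Nphs1, 7 were tested and 0 passed the threshold, while without LPR 3, 1 passed as higher.

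LPR 3 stood apart from the other kidneys. Its mean level over 7 adipocyte genes was -1.54, against 0.69 in LPR 1, 0.37 in LPR 2 and 0.98 to 1.38 in the MRL kidneys. All LPR kidneys were thus below all MRL kidneys in this list, with LPR 3 the farthest. The mean of LPR 3 over 6 urothelial genes was -0.19, against 0.27 to 0.36 in the other kidneys. Akr1b3, the aldose reductase that makes sorbitol in the inner medulla, was at 3.05 in LPR 3 and between 4.62 and 5.32 elsewhere. MRL 2 was the lowest in haemoglobin transcripts, with a mean over 5 erythroid genes of -0.68 against 0.50 to 3.12 in the other kidneys. Whether the kidney pieces held unequal shares of medulla, fat or blood was not tested. Values without LPR 3 are given beside many results. A call lost there need not come from LPR 3, since leaving out other mice also removed calls. Over all 39924 probes, 2462 were lower with all mice, 900 without LPR 3, and 760 to 839 without 1 of the MRL mice.

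Each probe is a 60-base oligonucleotide, and the file of the array places it on mouse build mm9. The probes of Aqp2, Aqp5 and Aqp6 lie within 23331 bases of chromosome 15, in that order, and those of Aqp7 and Aqp3 within 59591 bases of chromosome 4. Exons and untranslated regions are not annotated in the files. Of the 18 probes, 2 cover a genomic stretch longer than the probe itself, so they read across a removed intron: the Aqp2 probe A_51_P492298 (chr15:99412578-99413554, plus strand, a span of 977 bases) and the Aqp11 probe A_55_P2730441 (chr7:104875158-104877482, minus strand, 2325 bases). They are shown because they can match the spliced transcript only as a whole, together with the Aqp5 probe A_55_P2071236 (chr15:99424655-99424714, plus strand) and the Aqp6 probe A_55_P2744838 (chr15:99434265-99434324, plus strand), which lie between the Aqp2 probe and the brightest Aqp6 probe. The capitals at the end of the Aqp6 probe mark a stop triplet, and no other letters are in capitals.
Aqp2 A_51_P492298: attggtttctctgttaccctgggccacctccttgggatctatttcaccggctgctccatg
Aqp5 A_55_P2071236: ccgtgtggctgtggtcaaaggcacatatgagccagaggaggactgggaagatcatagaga
Aqp6 A_55_P2744838: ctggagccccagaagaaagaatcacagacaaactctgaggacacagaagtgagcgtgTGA
Aqp11 A_55_P2730441: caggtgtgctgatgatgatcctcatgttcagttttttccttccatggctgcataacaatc
The Aqp2 probe has no stop triplet in any of its 3 reading frames. No pair of probes from different members shares a run of more than 11 bases. The letters AATAAA, which many transcripts carry ahead of their poly(A) tail, occur in 4 of the 18 probes and in 9.77% of all probes on the array, searched on the printed strand.

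Aqp4, a water exit channel of the collecting duct, was the only member whose signal differed between the strains in the test across all probes. It fell about 2-fold in LPR kidneys by 2 of its 4 probes. The other 9 genes did not pass the threshold, and among them the pair most tied to vasopressin, Aqp2 and Aqp3, had changes near 0. Of the 18 probes, 17 were tested, and these 17 were above background on all 6 arrays. Limma with Benjamini-Hochberg adjustment over 39924 probes called 2 of the 17 lower and 0 higher in LPR kidneys. Over all tested probes, 12.7% were called, 6.17% as lower and 6.53% as higher. By the brightest tested probe of each gene, 1 of 10 members was lower, beside 5.47% of 25805 genes, and 0 of 10 were higher, beside 7.12%. At an unadjusted p under 0.05 there were 8 of 17 member probes, against 12126 of the 39924 probes tested.

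**Figure D1:**
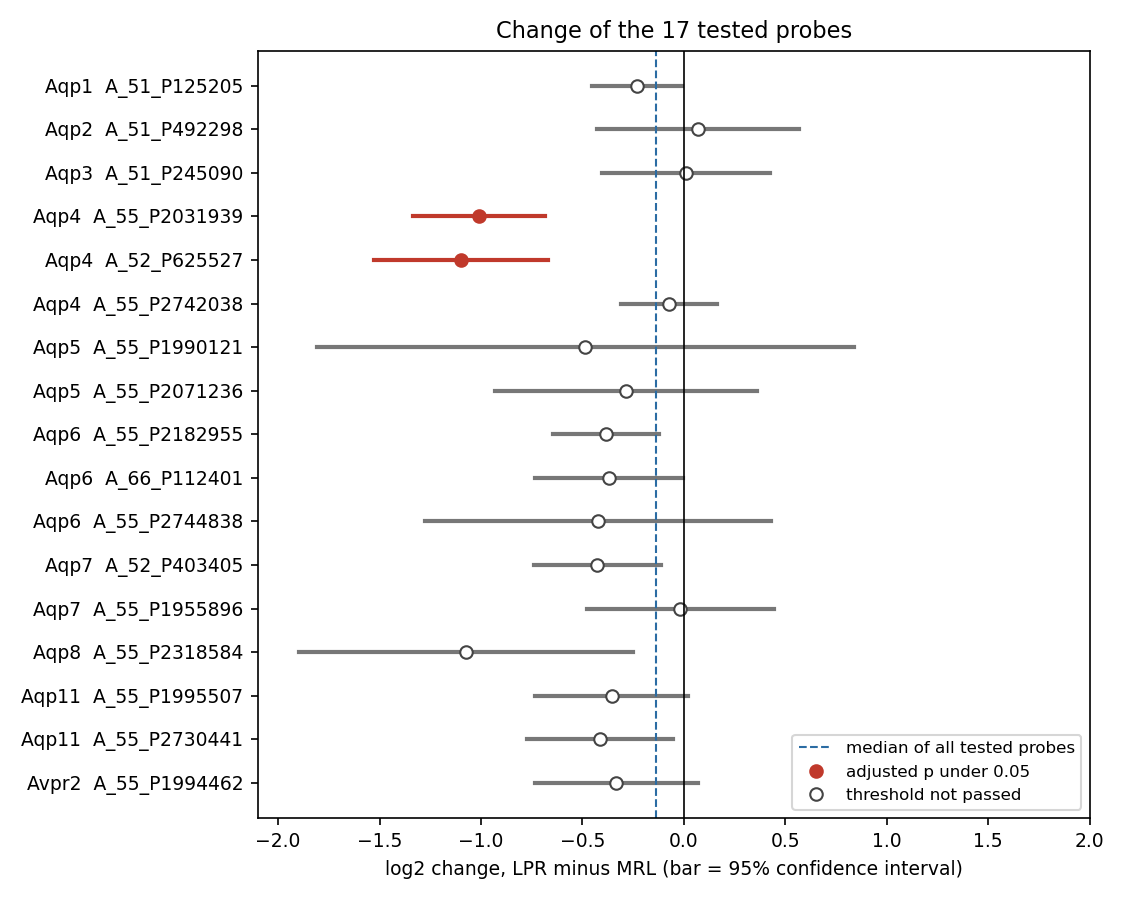
Log2 change (LPR minus MRL, x axis) of the 17 tested probes, with bars for the 95% confidence interval from limma and a dashed line at the median of all tested probes, -0.14. Filled red points mark the 2 Aqp4 probes with an adjusted p under 0.05, and open points mark probes that did not pass.

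Signals in LPR kidneys were slightly lower on the whole, with a median log2 change of -0.14 over the 39924 tested probes. This median stayed between -0.17 and -0.11 under all settings that were tried. The members had a negative change in 8 of 10 genes, as did 67.5% of all genes, and their median change was -0.37, against -0.12 over all genes. In 4 of 10 members (Aqp1, Aqp4, Aqp6 and Aqp7) every LPR kidney was below every MRL kidney. The same held for 25.6% of all genes, and for 7 of the 17 member probes beside 26.9% of all probes. The count of lower members depended on single mice: without LPR 2 it was 3 (Aqp4, Aqp6 and Aqp7), and without MRL 2 it was 2 (Aqp4 and Aqp8). Without LPR 3 it stayed at 1, Aqp4. Over all 39924 probes, 2269 were lower without LPR 2, 760 without MRL 2 and 900 without LPR 3, against 2462 with all mice.

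**Figure D2:**
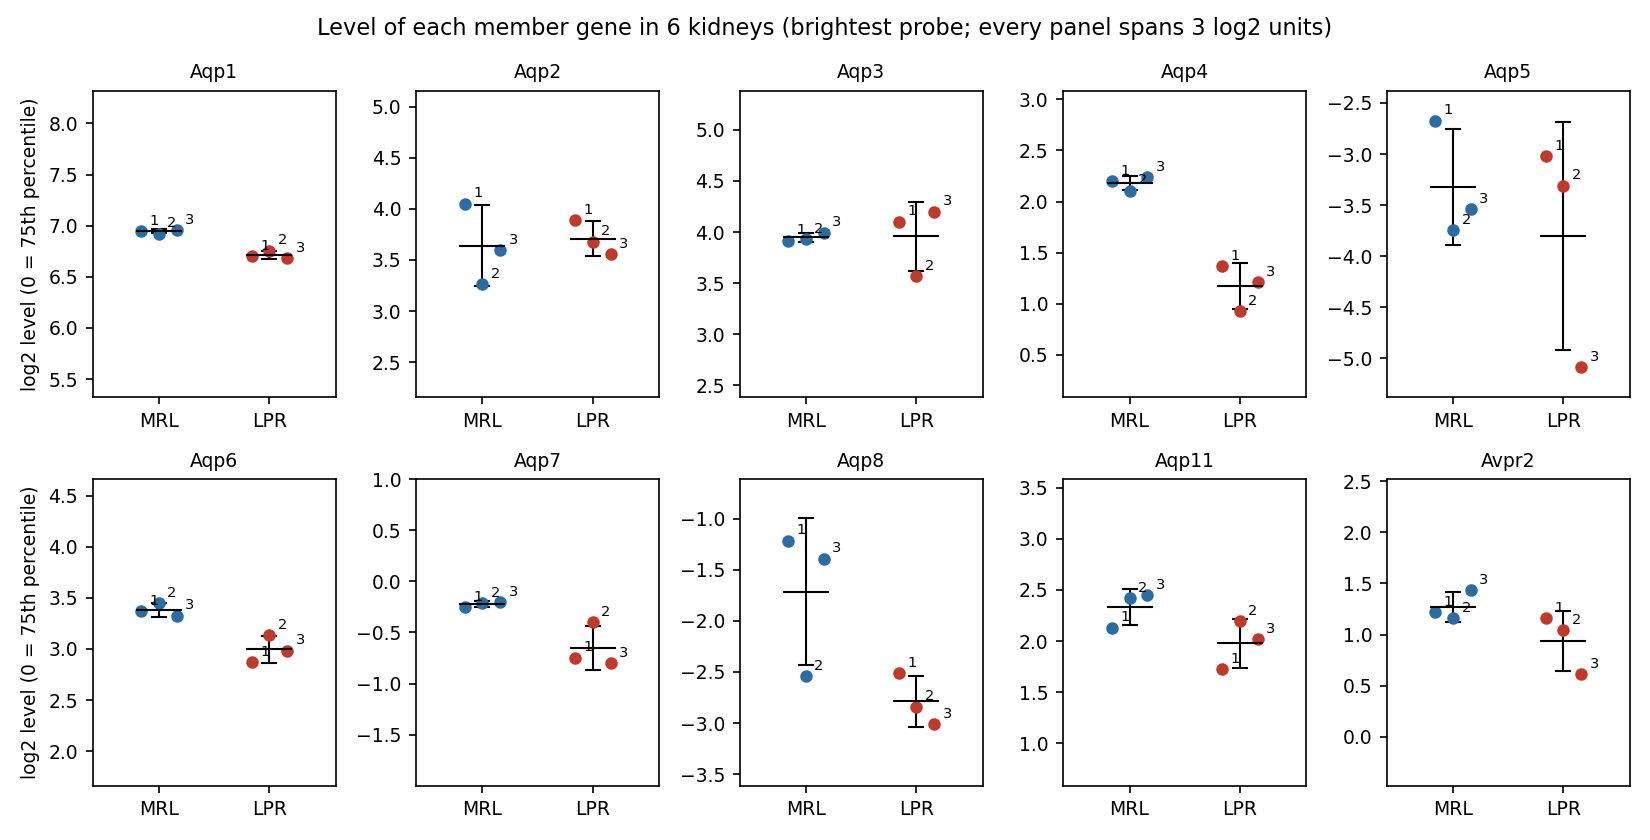
Log2 level of each member gene by its brightest probe (y axis, 0 is the 75th percentile of the array) in the 3 MRL and 3 LPR kidneys, numbered by mouse, with the mean and SD of each group. Every panel spans the same 3 log2 units, and the groups stand clear of each other in Aqp1, Aqp4, Aqp6 and Aqp7.

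Aqp4 was read by 4 probes on the minus strand of chromosome 18. The brightest, A_55_P2031939 (15547951 to 15548010), gave log2 levels of 2.20, 2.11 and 2.24 in MRL 1, 2 and 3, and of 1.37, 0.93 and 1.21 in LPR 1, 2 and 3. All LPR kidneys were below all MRL kidneys, with the lowest level in LPR 2. The group means were 2.18 ± 0.07 and 1.17 ± 0.22 (SD, n = 3 each). The log2 change was -1.01 (standard error 0.14, 95% confidence interval -1.34 to -0.69, adjusted p = 0.00436), or 2.01-fold lower in LPR kidneys.

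The Aqp4 probe A_52_P625527 (15551966 to 15552025) lies 4015 bases upstream of the brightest along the transcribed strand. It gave 0.61, 0.13 and 0.29 in the MRL kidneys and -0.58, -0.62 and -1.05 in the LPR kidneys. The groups were again apart, here with LPR 3 as the lowest. The log2 change of this probe was -1.10 (95% confidence interval -1.53 to -0.67, adjusted p = 0.0104), or 2.14-fold lower. It did not pass by the methods' t-test on log2 values after Benjamini-Hochberg (adjusted p = 0.0624).

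The remaining Aqp4 probes did not show this difference. A_55_P2742038 (15562690 to 15562749), 14739 bases upstream of the brightest, was between -3.12 and -3.09 in the MRL kidneys and between -3.27 and -3.09 in the LPR kidneys. Its log2 change was -0.07 (95% confidence interval -0.31 to 0.16, adjusted p = 0.642), an interval that does not reach the change of either called probe. A_55_P2742033 (15566493 to 15566552), the farthest upstream, was not well above background in any kidney and was not tested. The called probes are thus the pair nearest to the downstream end, but the array annotation does not separate the probes that disagree, since it names the same transcript for the brightest probe and for A_55_P2742038. Which transcripts each probe detects was not tested.

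**Figure D3:**
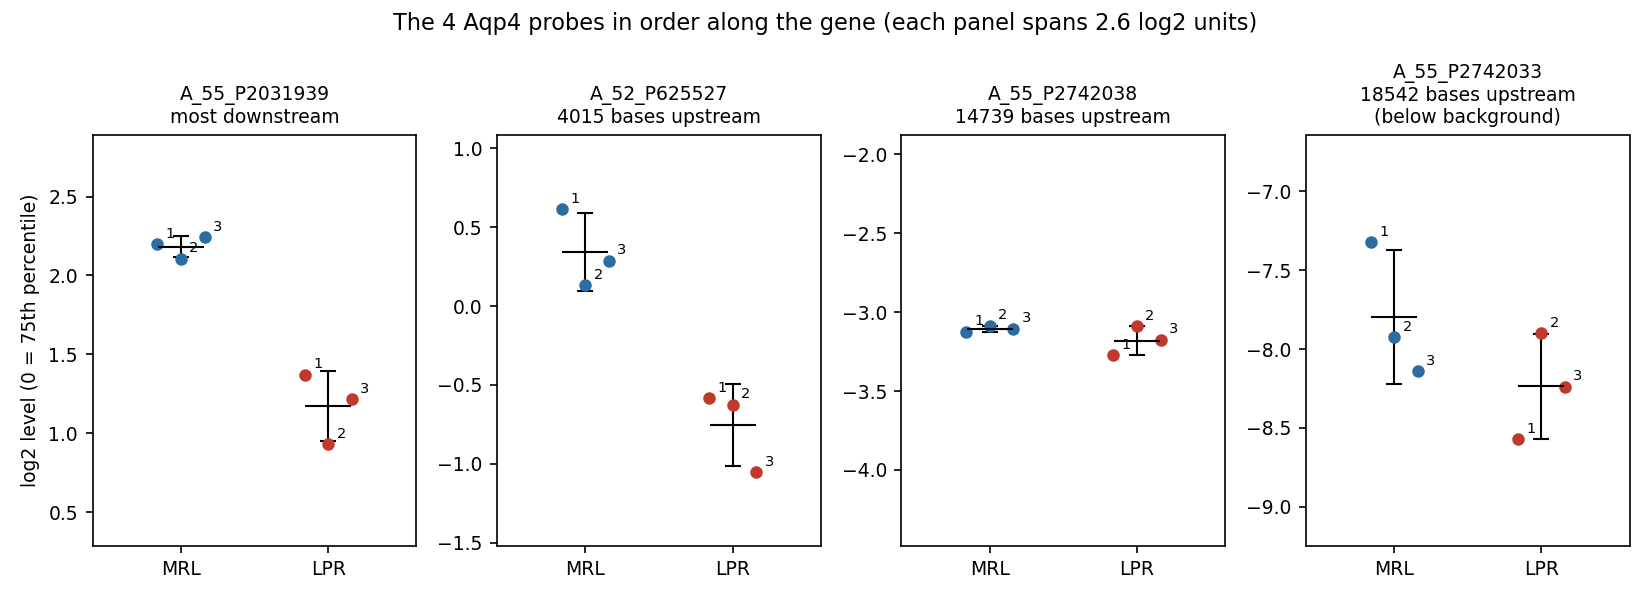
Log2 levels (y axis, 0 is the 75th percentile of the array) of the 4 Aqp4 probes in MRL and LPR kidneys, ordered from the most downstream to the most upstream probe, with points numbered by mouse and the mean and SD of each group. The groups are apart in the first and second panels, overlap in the third, and the fourth probe was below background.

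The slide columns hold the groups unequally, and mouse and column cannot be told apart for LPR kidneys. With the slide column in the fit, or within column 1 alone, where LPR 1 is the only LPR kidney, the brightest Aqp4 probe changed by -0.81 (adjusted p = 0.0599 in both) and the second by -0.93 (adjusted p = 0.121 and 0.118). The direction held, but neither probe passed, and the lone LPR array within the column is assumed to vary as the other arrays do. Without LPR 3, the brightest probe changed by -1.03 (adjusted p = 0.0194) and the second by -0.95 (adjusted p = 0.0294).

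Among the cell type markers, 8 of 8 principal cell genes, such as the sodium channel subunits Scnn1a, Scnn1b and Scnn1g, were tested and 0 passed. Their mean level was 1.24 to 1.39 in MRL kidneys and 1.03 to 1.13 in LPR kidneys, a lower range without overlap. The shift of this mean was -0.23, beside a median change of -0.14 over all tested probes. Of single genes, 25.6% over the whole array also had every LPR kidney below every MRL kidney. Of 9 leukocyte genes, 7 were higher in LPR kidneys, and the mean of the list was -0.93 to -0.79 in MRL and 1.35 to 1.50 in LPR kidneys. In whole kidney RNA, fewer cells of a type cannot be told apart from less RNA per cell, and the part of the infiltrating cells in the Aqp4 difference was not tested.

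**Figure D4:**
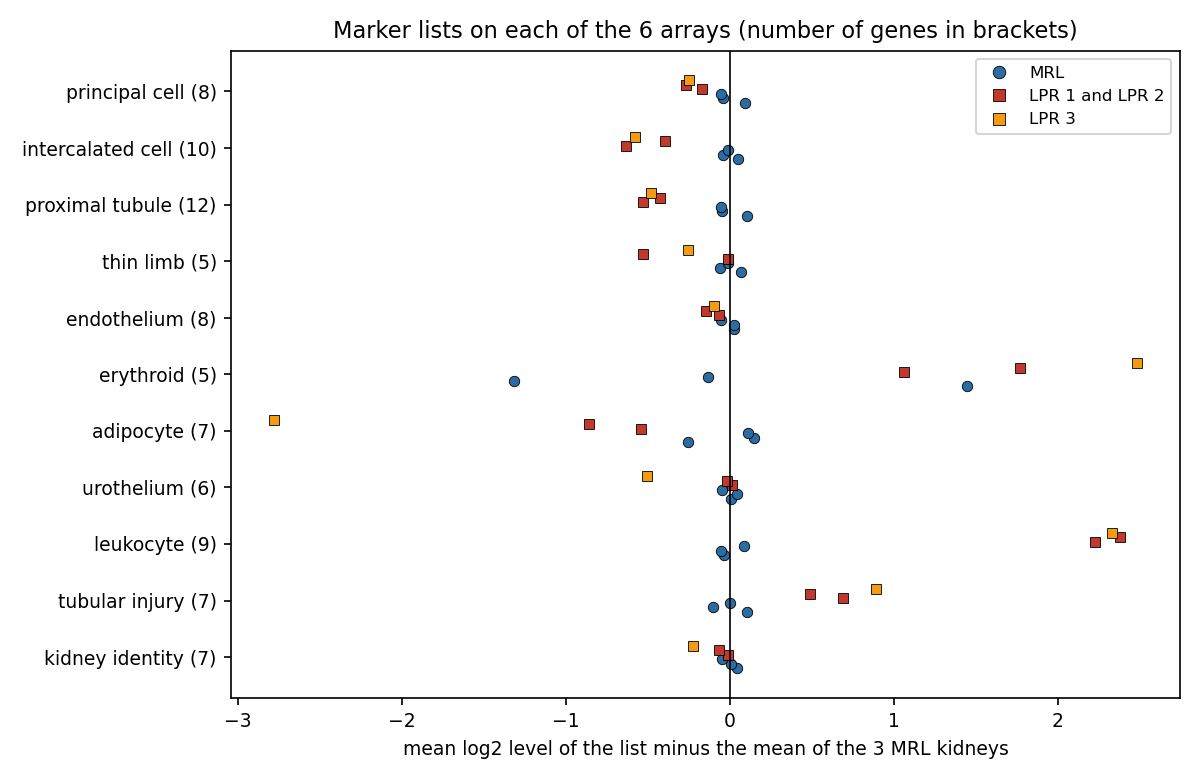
Mean log2 level of each marker list on each of the 6 arrays, minus the mean of the 3 MRL kidneys (x axis), with the number of genes in brackets. The leukocyte list was higher in all LPR kidneys, and LPR 3 (orange) was the lowest kidney in the adipocyte and urothelium lists.

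Aqp2, the vasopressin-regulated channel of the apical membrane, was read by A_51_P492298, shown above. Its log2 levels were 4.05, 3.26 and 3.60 in the MRL kidneys and 3.89, 3.68 and 3.56 in the LPR kidneys. The LPR values all fell inside the MRL range, whose ends were MRL 1 and MRL 2. The log2 change was 0.07 (standard error 0.21, 95% confidence interval -0.43 to 0.57, adjusted p = 0.843). The interval holds changes of either sign, so equal levels were not shown.

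Aqp3, the basolateral channel that also passes glycerol, was read by A_51_P245090 on chromosome 4 (41039962 to 41040021, minus strand). It gave 3.92, 3.93 and 3.99 in the MRL kidneys and 4.10, 3.57 and 4.20 in the LPR kidneys. The MRL kidneys were close to each other, whereas LPR 2 was below and LPR 1 and LPR 3 above all of them. The log2 change was 0.01 (95% confidence interval -0.41 to 0.43, adjusted p = 0.976).

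Avpr2, the V2 receptor itself, was read by A_55_P1994462 on chromosome X (71139472 to 71139531, plus strand). It gave 1.22, 1.16 and 1.43 in the MRL kidneys and 1.16, 1.05 and 0.61 in the LPR kidneys. The groups overlapped at MRL 2 and LPR 1, and LPR 3 was the lowest. The log2 change of -0.33 (95% confidence interval -0.73 to 0.07) did not pass (adjusted p = 0.234), and without LPR 3 it was -0.17 (adjusted p = 0.496).

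Aqp1, the water channel of the proximal tubule, thin descending limb and red blood cells, was read by A_51_P125205 on chromosome 6 (55298480 to 55298539, plus strand). Its levels were 6.95, 6.92 and 6.96 in the MRL kidneys and 6.70, 6.75 and 6.68 in the LPR kidneys. The replicates of each group were within 0.1 of each other and the groups did not overlap. The log2 change was small, at -0.23 (standard error 0.09, 95% confidence interval -0.45 to -0.01), or 1.17-fold, and did not pass in limma (adjusted p = 0.149). The methods' t-test on log2 values, which uses the spread of the single probe, gave an adjusted p of 0.0214 for the same change after Benjamini-Hochberg. The part of red blood cells in these values was not tested.

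Aqp7, the glycerol and water channel of the proximal brush border, was read by 2 probes on the minus strand of chromosome 4. The brighter, A_52_P403405 (40981243 to 40981302), gave -0.25, -0.21 and -0.20 in the MRL kidneys and -0.75, -0.40 and -0.80 in the LPR kidneys. All LPR kidneys were lower, and LPR 2 was nearest to the MRL kidneys. Its log2 change was -0.43 (standard error 0.13, 95% confidence interval -0.74 to -0.11, adjusted p = 0.0814), and without LPR 2 it was -0.55 (adjusted p = 0.0223). The dimmer probe A_55_P1955896 (40980431 to 40980490) changed by -0.02 (adjusted p = 0.961), with overlapping groups.

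Aqp8 was read by A_55_P2318584 on chromosome 7 (130611453 to 130611512, plus strand). It gave -1.21, -2.54 and -1.39 in the MRL kidneys and -2.51, -2.84 and -3.01 in the LPR kidneys. MRL 2 lay with the LPR kidneys, just below LPR 1. The mean change of -1.07 (95% confidence interval -1.90 to -0.25), or 2.10-fold, was as large as that of Aqp4, but the MRL kidneys varied with an SD of 0.72 and the adjusted p was 0.0913. Without MRL 2 the change was -1.48 and passed (adjusted p = 0.00563). With all mice it passed under 2 settings that called more probes lower over the whole array. These were normexp background correction (adjusted p = 0.0237) and an intensity trend in limma (adjusted p = 0.0457).

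Aqp11 was read by 2 probes on the minus strand of chromosome 7. A_55_P1995507 (104874889 to 104874948) gave 2.13, 2.42 and 2.45 in the MRL kidneys and 1.72, 2.19 and 2.02 in the LPR kidneys. The intron-spanning probe A_55_P2730441, shown above, gave 1.72, 1.98 and 1.93 and then 1.21, 1.69 and 1.49. Both probes ordered the kidneys alike at the low end, with LPR 1 as the lowest. Their log2 changes were -0.36 (adjusted p = 0.183) and -0.41 (adjusted p = 0.123), and neither passed.

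Among 12 proximal tubule genes, 4 were lower in LPR kidneys and 0 were higher. They were Lrp2, the endocytic receptor megalin, the sodium-dependent transporters Slc5a2 and Slc5a12, of glucose and lactate, and the amino acid transporter Slc7a13. Their log2 changes ran from -2.12 in Slc7a13 to -0.39 in Lrp2. Without LPR 3 only Slc5a12 still passed (adjusted p = 0.0376), while Lrp2 (adjusted p = 0.0975), Slc5a2 (0.0801) and Slc7a13 (0.121) did not, and within slide column 1 the count was 0. The changes of Lrp2, Slc5a2 and Slc7a13 without LPR 3 were -0.43, -0.58 and -1.96. Each of them also failed without MRL 3 and without LPR 1. The mean level of the list was 5.26 to 5.41 in MRL kidneys and 4.78 to 4.88 in LPR kidneys. Of 5 thin limb genes, Corin was lower (log2 change -0.91). Of 7 tubular injury genes, Lcn2 and Vcam1 were higher, 5 did not pass, and 2 had a negative change. Lcn2 did not pass by the methods' t-tests after Benjamini-Hochberg. The part of these shifts in the values of Aqp1, Aqp7, Aqp8 and Aqp11 was not tested, nor was the part of leukocytes in Lcn2 and Vcam1.

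Aqp6 was read by 3 probes on the plus strand of chromosome 15. The brightest, A_55_P2182955 (99435849 to 99435908), gave 3.37, 3.45 and 3.33 in the MRL kidneys and 2.87, 3.13 and 2.98 in the LPR kidneys. All LPR kidneys were lower, with LPR 1 the lowest. The log2 change was -0.38 (standard error 0.11, 95% confidence interval -0.65 to -0.12, adjusted p = 0.0683), and without LPR 2 it was -0.45 (adjusted p = 0.0471).

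The other Aqp6 probes gave changes of like size. A_66_P112401 (99434806 to 99434865) changed by -0.37 (adjusted p = 0.161), with every LPR kidney below every MRL kidney. A_55_P2744838, the probe ending in the stop triplet above, changed by -0.42 (adjusted p = 0.459) with overlapping groups. In this last probe MRL 3 was at -5.58, below all LPR kidneys, against -4.28 and -4.17 in MRL 1 and MRL 2, and without MRL 3 the change was -0.88 (adjusted p = 0.0129). Without MRL 1 it was -0.22 (adjusted p = 0.750) and without MRL 2 it was -0.17 (adjusted p = 0.804), so this probe varied with the choice of mice.

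Of the 10 intercalated cell genes, 5 were lower in LPR kidneys and 0 were higher. They were the proton pump subunits Atp6v0d2 and Atp6v1g3, the anion exchangers Slc26a4 (pendrin) and Slc4a9, and the homeobox gene Hmx2, with log2 changes between -0.94 (Hmx2) and -0.45 (Atp6v0d2). Without LPR 3 only Hmx2 and Slc4a9 still passed, while Atp6v0d2 (adjusted p = 0.100), Atp6v1g3 (0.0851) and Slc26a4 (0.0569) did not, and within slide column 1 the count was 1. The changes of Atp6v0d2, Atp6v1g3 and Slc26a4 without LPR 3 were -0.44, -0.63 and -0.59, and each of them also failed without MRL 3. The mean level of the list was 1.34 to 1.43 in MRL kidneys and 0.74 to 0.99 in LPR kidneys. Its part in the Aqp6 values was not tested.

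Aqp5 was dim and was read by 2 probes on the plus strand of chromosome 15. A_55_P1990121 (99425138 to 99425197) gave -2.67, -3.74 and -3.54 in the MRL kidneys and -3.02, -3.31 and -5.08 in the LPR kidneys. LPR 3 was far below the other 5 kidneys, which overlapped. The log2 change of -0.49 (95% confidence interval -1.81 to 0.84, adjusted p = 0.587) turned to 0.15 without LPR 3 (adjusted p = 0.801). The probe A_55_P2071236, shown above, gave -0.28 (adjusted p = 0.511), also with LPR 3 as the lowest kidney at -5.24, and without LPR 3 it gave -0.01 (adjusted p = 0.975).

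LPR 3 was likewise the lowest kidney in Akr1b3, as given above, and in a probe of Slc14a2. This did not hold for all transcripts of the collecting duct. LPR 3 was the highest kidney in Aqp3 (4.20). The mean of the principal cell list was lowest in LPR 2, at 1.03 against 1.05 in LPR 3. In Slc14a2, the vasopressin-regulated urea transporter, the probe A_55_P1964028 gave 0.97, 1.05 and 0.68 in the MRL kidneys and 0.88, -0.84 and -3.05 in the LPR kidneys, while the brightest Slc14a2 probe had a log2 change of -0.14 (adjusted p = 0.687). LPR 2 and LPR 3, the kidneys low in this probe, share slide column 2. Whether the low Aqp5 and Avpr2 of LPR 3 share a source with its low Akr1b3 and Slc14a2 values was not tested.

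Around the channels, 75 genes in 6 lists were examined, of which 71 were tested, 4 were higher and 8 lower in LPR kidneys, and 59 did not pass. Over all genes, 7.12% were higher and 5.47% lower. These lists describe where the vasopressin signal, the traffic of Aqp2 and the osmotic gradient come from. With the slide column in the fit, 2 were higher and 0 lower. The count of lower genes was 8, 9 and 4 without LPR 1, LPR 2 and LPR 3, and 5, 3 and 2 without MRL 1, MRL 2 and MRL 3.

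In vasopressin and cyclic AMP signalling, 13 of 15 genes were tested, 1 was higher and 1 lower, with a median log2 change of -0.17. Adcy3, an adenylyl cyclase, rose by 0.85 (adjusted p = 0.00796), but with normexp background correction its change was 0.25 and did not pass (adjusted p = 0.0685), while Adcy6, the cyclase most linked to Avpr2 in the collecting duct, had a change of -0.26 (adjusted p = 0.236). Pde4d, a phosphodiesterase that breaks down cyclic AMP, fell by 1.02 (adjusted p = 0.00918). Its levels were 0.12, 0.44 and 0.12 in the MRL kidneys and -0.82, -1.03 and -0.54 in the LPR kidneys, without overlap. Of the other genes, the Gs protein gene Gnas and the protein kinase A subunits Prkaca and Prkar1a had changes between -0.07 and 0.00. The hormone gene Avp and the receptor Avpr1b had no tested probe.

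Among 9 other receptors that act on water transport, 2 were higher and 1 lower, with a median change of -0.30. Both higher genes code for prostaglandin E2 receptors coupled to cyclic AMP. Ptger4 was -0.59, -0.58 and -0.40 in the MRL kidneys and 0.38, 0.43 and 0.55 in the LPR kidneys, a log2 change of 0.97 (adjusted p = 0.00177). Ptger2 was above background in 1 of 3 MRL and 3 of 3 LPR kidneys, so it passed the filter through the LPR kidneys, and the size of its change is uncertain. The log2 change was 1.78 (adjusted p = 0.00411), but 0.44 with normexp background correction (adjusted p = 0.0235), and the probe was not tested when all 6 arrays had to be above background. Leukocytes also express both receptors, and the leukocyte list rose as given above. The part of leukocytes in the changes of Ptger2 and Ptger4 was not tested. The receptors Ptger1 (-0.45, adjusted p = 0.0766) and Ptger3 (-0.07, adjusted p = 0.651) did not pass. Ednrb, the endothelin B receptor, fell by 0.91 (adjusted p = 0.0270), and it did not pass with the slide column in the fit (adjusted p = 0.189).

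**Figure D5:**
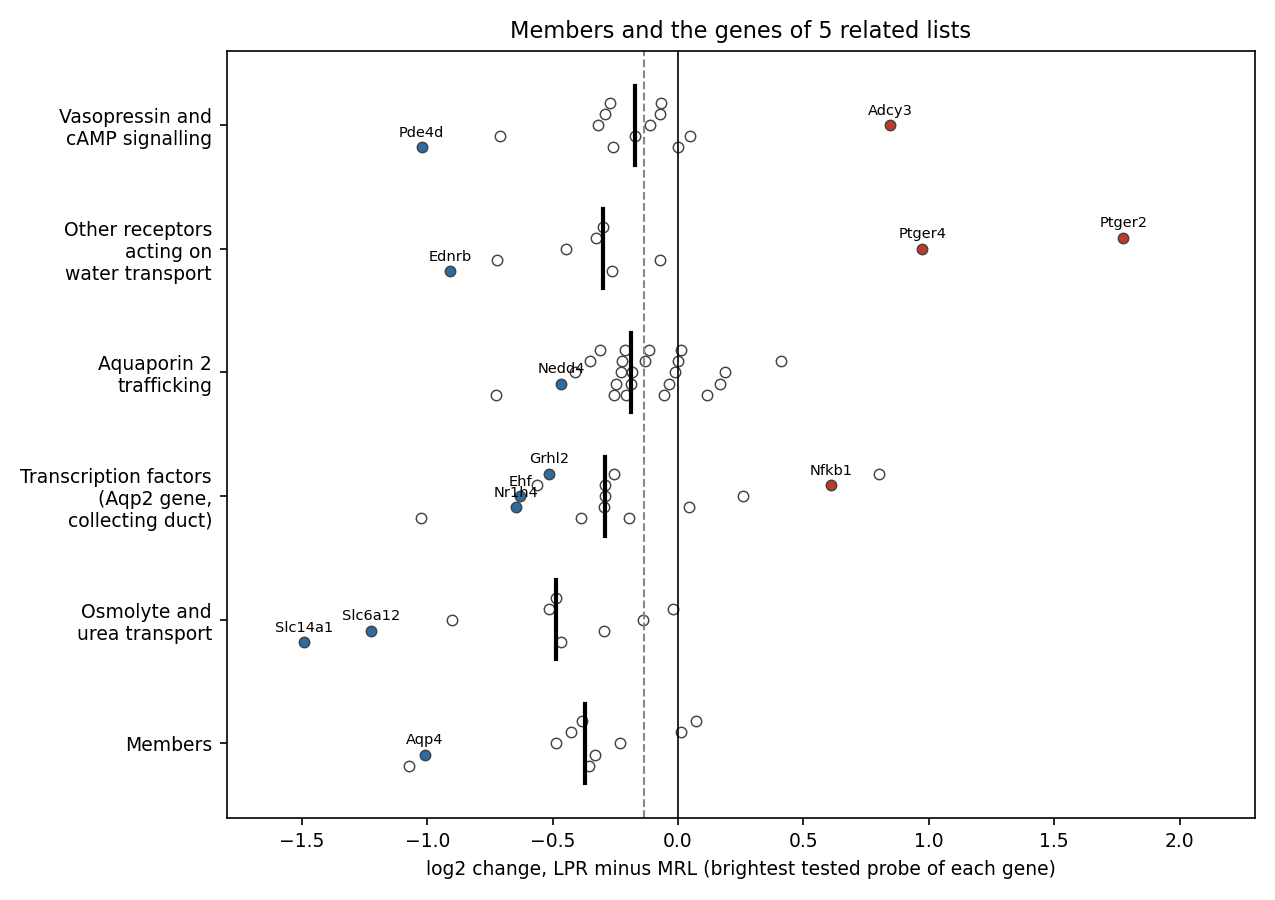
Log2 change (LPR minus MRL, x axis) of the 10 members and of the tested genes of 5 related lists, by the brightest tested probe of each gene, with a thick bar at the median of each list and a dashed line at the median of all tested probes. Filled points passed the threshold, red for higher and blue for lower, and open points did not.

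Of 24 genes of Aqp2 trafficking, 1 passed. Nedd4, a ubiquitin ligase, fell by 0.47 (adjusted p = 0.0308), and the median of the list was -0.19. The syntaxins, VAMPs and Rab proteins that move Aqp2 vesicles did not pass, among them Vamp2 (-0.22, adjusted p = 0.207), Stx4a (0.19, adjusted p = 0.27) and Rab11a (0.01, adjusted p = 0.957). Anxa2, an annexin, narrowly missed the threshold at 0.41 (adjusted p = 0.0501). Without LPR 3 the count of this list was 0, with Nedd4 at -0.46 (adjusted p = 0.0944). Nedd4 also failed without MRL 1, MRL 2, MRL 3 or LPR 2.

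Of 15 transcription factors of the Aqp2 gene and the collecting duct, 3 were lower and 1 was higher, with a median of -0.29. Grhl2, a factor of epithelial junctions, fell by 0.52 (adjusted p = 0.0142), and all MRL kidneys lay between 0.17 and 0.21 and all LPR kidneys between -0.35 and -0.31. Ehf, an epithelial ETS factor, fell by 0.63 (adjusted p = 0.0490), and Nr1h4, the bile acid receptor FXR, fell by 0.65 (adjusted p = 0.0197). None of these 3 passed without LPR 3 (adjusted p = 0.0592 for Grhl2, 0.106 for Ehf and 0.0669 for Nr1h4). Their changes there were -0.50, -0.66 and -0.64, and each of them also failed without MRL 2 and without MRL 3. Nfkb1, a subunit of NF-kB, rose by 0.61 (adjusted p = 0.00743). It passed without LPR 3 (adjusted p = 0.0306) but not with the slide column in the fit (0.64, adjusted p = 0.0594). The part of leukocytes in the rise of Nfkb1 was not tested. Nfat5, the factor of the response to high tonicity, had a change of -0.29 (adjusted p = 0.297), and Elf5, a principal cell factor, had -1.02 and narrowly missed the threshold (adjusted p = 0.0516).

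In osmolyte and urea transport, 9 of 9 genes had a negative change, beside 67.5% of all genes, and 2 were lower. The list's median was -0.49, and -0.40 without LPR 3. Within slide column 1 it was -0.19, beside a median of -0.14 over all probes in that setting. Slc14a1, the urea transporter of the descending vasa recta and red blood cells, gave 0.09, 0.02 and -0.45 in the MRL kidneys and -1.29, -1.47 and -2.06 in the LPR kidneys. The groups were apart, and the log2 change was -1.49 (adjusted p = 0.00905), or 2.81-fold lower. Slc6a12, the betaine transporter, gave 0.56, 0.31 and 0.81 in the MRL kidneys and -0.52, -0.24 and -1.22 in the LPR kidneys, a log2 change of -1.22 (adjusted p = 0.0279). LPR 3 was the lowest kidney in both. Without it the changes were -1.26 (adjusted p = 0.0171) and -0.94 (adjusted p = 0.0394), and with the slide column in the fit neither passed (adjusted p = 0.112 and 0.192).

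Few markers of cells other than tubule cells and leukocytes passed. Of 8 endothelial genes, Kdr was lower (log2 change -0.57, adjusted p = 0.0317), though not in 5 of the fits that left out a single mouse. Without LPR 3 its change was -0.52 (adjusted p = 0.102). The mean of the endothelial list was 1.50 to 1.58 in MRL and 1.41 to 1.49 in LPR kidneys. Of 7 adipocyte genes, whose cells use Aqp7, Fabp4 was lower (-0.83, adjusted p = 0.0123). All 7 had a negative change, beside 67.5% of all genes, with a median of -1.47, and of -0.73 without LPR 3. The part of adipocytes in the Aqp7 values was not tested. Of the 5 erythroid genes tested, 0 passed, and their mean level ranged from -0.68 to 2.08 in MRL and 1.70 to 3.12 in LPR kidneys. Of 6 urothelial genes, Trp63 was higher (0.38, adjusted p = 0.0491), and it did not pass when any single mouse was left out (0.35 without LPR 3, adjusted p = 0.147).

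Of the aquaporin genes outside the 10 members, Mip and Aqp12 had no tested probe. Aqp9, a channel of liver and leukocytes, had 2 tested probes that differed. Its brighter probe changed by 0.00 (adjusted p = 0.994). Its dimmer probe, A_55_P2763530, was above background in 0 of 3 MRL and 3 of 3 LPR kidneys and its signal differed by at least 1.85-fold (adjusted p = 0.0291). It entered the test only through the LPR kidneys, so the p-value does not support a rise. For this bound, the MRL signals were set no lower than the detection limit of their arrays.

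The genes whose pattern over the 6 kidneys was most like that of Aqp2 were Ppnr, Olfr469, Zfp790, Ikzf4 and Clstn2, with Pearson r of 0.984, 0.981, 0.980, 0.969 and 0.966. They were taken from 23316 genes above background on all arrays. All values share the same 6 kidneys and arrays, and with 6 points r orders the genes and is no more than a description.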

How the data were processed

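Whole kidneys of 3 MRL and 3 LPR mice were measured on Agilent SurePrint G3 mouse arrays (probe positions on mm9). The authors deposited scanner intensities from Feature Extraction 12.0.3.1, per the labels and file headers, with the background subtracted and no normalization between arrays, and a table of ratios of these values to the 75th percentile of all spots on the array. Spot flags were also read. The labels name the RNeasy Mini Kit for RNA, whereas the methods name Trizol.

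Control and outlier spots (73 to 90 per array) were left out. The log2 intensities, as deposited, were shifted by the 75th percentile of each array (706 to 942 before log2) and averaged per probe. No spot was saturated. Probes well above background on at least 3 of 6 arrays entered limma 3.58.1 (R 4.3.3), and p-values were adjusted over 39924 probes by Benjamini-Hochberg, with 0.05 as threshold. The brightest tested probe stands for a gene. The number of arrays limits the precision, and for groups of 3 the smallest p of an exact two-sided permutation test is 0.1, so none was used. All member probes, list genes that passed and the 5 genes most like Aqp2 are named, and other genes only beside a result. The members and lists were chosen with earlier results of these data known. Lists were tallied without a set test. Alternatives covered background correction, scaling, the deposited ratios, the filter, outlier spots, the variance model, slide column, replicate number, probe averaging, the methods' t-test and leaving out each mouse. The limma step was tested on simulated data with 3 against 3 arrays. It recovered 130 of 200 planted changes, 85 of 100 at 4-fold and 45 at 2-fold, with 6 false calls. Changes of 2-fold could thus be missed in that setting. The 200 changes were planted among 39924 probes, whereas 12.7% of the probes were called in the real data, so the shares recovered may differ there. Figures were drawn with matplotlib 3.10.9.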

Additional observations from a re-analysis of the deposited data

How the results depend on the processing

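No member gene was higher in LPR kidneys under any of the 22 settings. The brightest Aqp4 probe kept its direction in the 21 settings run on single probes (log2 change -1.11 to -0.81) and passed in all of these but both slide column settings. The mean of the 3 tested Aqp4 probes changed by -0.73 (adjusted p = 0.00505). The second Aqp4 probe also missed the threshold by the methods' t-test after Benjamini-Hochberg (adjusted p = 0.0624 on log2 and 0.0771 on linear values). The number of lower member genes, 1 as reported, became 4 with normexp background correction and with an intensity trend in limma (Aqp6, Aqp7 and Aqp8 joined Aqp4), 0 with the slide column in the fit or within column 1, and 1 to 3 when single mice were left out. By the methods' t-test, on log2 or linear values, it was 4 unadjusted and 2 after Benjamini-Hochberg (Aqp1 and Aqp4). Of 39916 probes, the unadjusted t-tests called 7175 (log2) and 7384 (linear) lower, and the adjusted t-tests 1385 and 1353. When single mice were left out, 760 to 2269 of 39924 probes were lower. The number of lower member probes, 2 as reported, became 6 with normexp, 5 with the trend, 5 with the unadjusted t-tests, 0 with both slide column settings, and 2 to 4 when single mice were left out. Both counts were unchanged by quantile normalization, median shift, the deposited ratios, the filters and outlier spots. For the related lists, 4 higher genes became 2 with the slide column in the fit and 0 within column 1. The 8 lower genes became 21 with normexp, 15 with the trend, 4 without the filter, 0 with both slide column settings, 23 and 24 by the unadjusted t-tests on log2 and linear values and 3 and 2 after adjustment, and 2 to 9 when single mice were left out. The list settings were chosen after seeing the data.

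The labels do not say that equal replicate numbers pair the mice. The correlations of deviations between equal numbers were 0.12, 0.02 and 0.01, against -0.07 to 0.05 between unequal numbers. With 3 mice per group these values cannot settle whether the numbers pair the mice. With the replicate block, 1 member gene was lower (Aqp4, adjusted p = 0.0140), and the lower genes of the related lists went from 8 to 3. When single mice were left out, 4 probes turned sign, with changes of -0.12 (without MRL 2) to 0.28 for Aqp2, -0.11 (without LPR 3) to 0.20 for Aqp3, -0.88 to 0.15 (without LPR 3) for Aqp5 A_55_P1990121, and -0.17 to 0.14 (without LPR 1) for Aqp7 A_55_P1955896. This Aqp5 probe was also positive, at 0.30, with both slide column settings. The cause was not tested. Over all probes, 2606 higher and 2462 lower calls became 2540 and 4448 with normexp, 2881 and 3481 with the trend, and 1458 and 463 with the slide column. Signal over background limits Aqp5, the dimmer Aqp6 probes, the dimmer Aqp7 probe, the Aqp4 probe A_55_P2742038 and the untested Aqp4 probe.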
